A study of Equus caballus with 68 samples.

Results

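The phagocyte oxidase is the enzyme with which neutrophils, monocytes and macrophages turn oxygen into superoxide. Its membrane part is a pair of proteins encoded by CYBA and CYBB. At rest organising proteins, among them those encoded by NCF1 and NCF4, stay in the cytosol, and they join the membrane pair together with the small GTPase RAC2 when the cell is activated. NOS2 encodes the inducible nitric oxide synthase, and SOD2 the mitochondrial enzyme that converts superoxide to hydrogen peroxide. The genes described here were CYBA, CYBB, NCF1, NCF4, RAC2, NOS2 and SOD2, 7 of the 30371 genes listed, chosen by symbol and each found in 1 row. They were followed in bone marrow mononuclear cells (BMNC), the light cell fraction of a marrow aspirate, while these cells turned into macrophage-rich cultures.

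The animals were 8 Thoroughbred horses of 3 to 9 years (6 geldings, 2 females), and every library came from 1 of them. Fresh BMNC gave 8 libraries at 0 h. The rest of each horse's cells were cultured either in its own normal synovial fluid (SF) or in its own inflamed synovial fluid (ISF), drawn from a joint at the peak of the synovitis that injected lipopolysaccharide induces. Both fluids were depleted of cells and served as the growth medium. SF and ISF cultures gave 7 libraries each after 48 hours, 8 after 96 hours, 8 after 6 days and 7 after 10 days, making 68 in all. The horse Moon had no 48-hour libraries and the horse Flash none at 10 days. Each culture library came from 1 well. Levels are given in GeTMM, a read density per kilobase that is brought to a common scale by the trimmed mean of M values, so they can be set side by side between genes as well as between libraries.

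The libraries held 15.7 to 36.0 M reads on genes (median 22.3 M), and every value of the members other than NOS2 rested on at least 960 reads. Macrophage markers averaged 3.98 on the log2(GeTMM + 1) scale in BMNC (7 genes, library range 3.65 to 4.61) and 10.6 (SF) and 11 (ISF) at 10 days, where the lowest library was at 10.5. Mature neutrophil markers (3 of 7 listed genes used: CSF3R, MMP9 and S100A12, which monocytes can also express) went the other way, from 11.8 in BMNC (11.4 to 12) to 6.92 in SF (3.81 to 9.01) and 6.67 in ISF (5.74 to 7.32) at 10 days. Neither list overlapped between BMNC and the 10-day cultures. In bulk RNA fewer cells of a type and less RNA per cell cannot be told apart. Of the 68 libraries, 66 lay closest to other libraries of their own horse. The ISF 96-hour libraries labelled Dealings and Dreamer each lay closest to the other horse (mean correlation 0.293 with Dreamer and 0.354 with Dealings, against -0.04 and -0.06 with the horse on the label). The SF library of Moon at 6 days stood apart from its group (mean correlation 0.833 with the other libraries, against 0.939 for the next lowest library of any group). Where leaving out these 3 libraries changed a call of a member, both values are given.

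**Figure D1:**
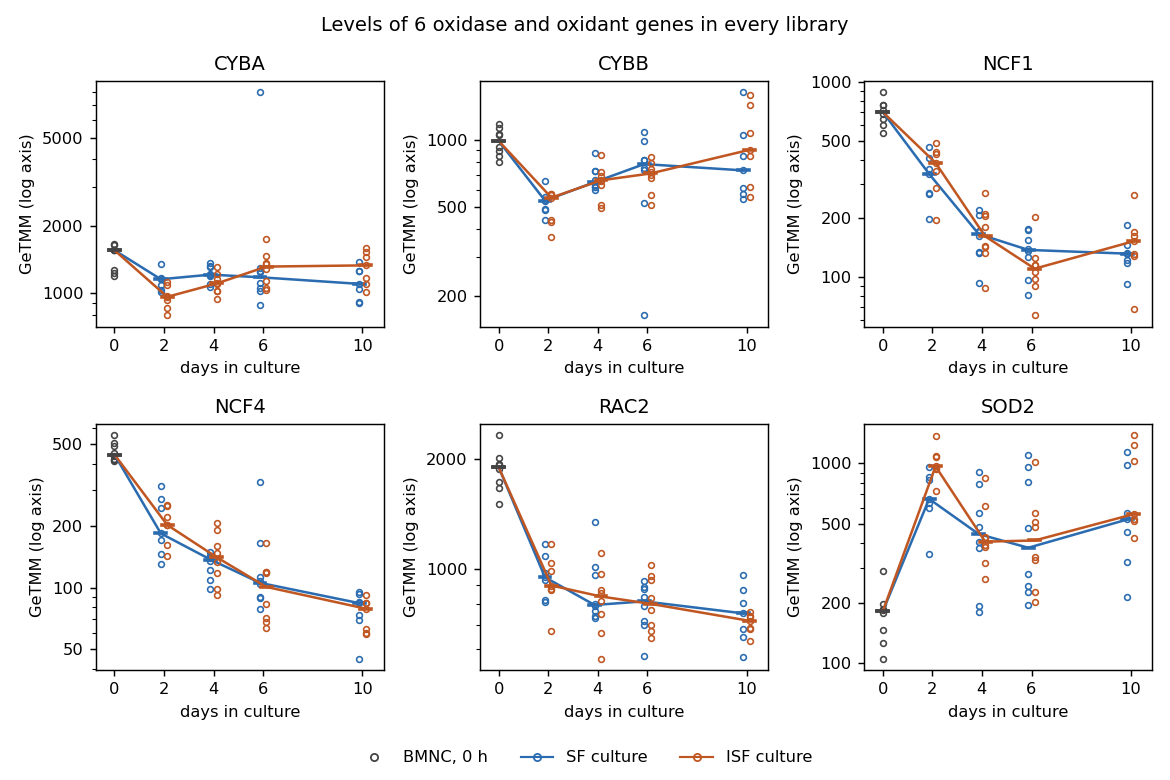
GeTMM (log axis) of 6 members against days in culture. Each circle is 1 library, bars are group medians, black marks BMNC, blue SF and orange ISF; NCF1, NCF4 and RAC2 are highest in BMNC, SOD2 is lowest there, and the CYBA and CYBB points far from their groups at 6 days are the SF library of Moon.

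The membrane pair was abundant throughout, and its main change was a drop over the first 48 hours. CYBA (ENSECAG00000010965), which encodes the p22phox chain that stabilises the complex, ranked 105 among the 14570 genes tested in BMNC. It measured 1463 ± 195 GeTMM (SD, n = 8; lowest 1200, median 1561, highest 1670). At 48 hours it measured 1140 ± 116 in SF (1015, 1156 and 1360) and 961 ± 116 in ISF (795, 963 and 1124; n = 7 each). Every ISF value lay below every BMNC value, while the SF values overlapped them, although each of the 7 horses was lower than its own BMNC in both fluids. The fall in ISF passed the test (log2 difference -0.60, SE 0.20, 1.52-fold lower, FDR = 0.0107 by limma with Benjamini-Hochberg adjustment over all genes tested). The difference in SF was -0.35 (SE 0.20, FDR = 0.156), and it passed once the SF library of Moon at 6 days was left out of the fit (FDR = 0.00386).

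From 96 hours CYBA measured 1113 ± 118 (n = 8), 1307 ± 239 (n = 8) and 1313 ± 226 (n = 7) in ISF. In SF it was 1224 ± 105 at 96 hours and 1122 ± 181 at 10 days. The SF group at 6 days averaged 1989 ± 2440 because the library of Moon read 8016, and the other 7 libraries averaged 1128 ± 150 (888 to 1305). No interval after 48 hours passed the test for CYBA in either fluid. Its level at 10 days was a median 76.4% of the horse's own BMNC level in SF and 86.9% in ISF.

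CYBB (ENSECAG00000017917) encodes gp91phox, the chain that carries the electrons and whose loss is the classic X-linked cause of chronic granulomatous disease. It measured 989 ± 140 GeTMM in BMNC (798, 992 and 1184). At 48 hours it was 530 ± 68.8 in SF (440, 537 and 657) and 501 ± 86.3 in ISF (368, 553 and 576), and neither fluid overlapped BMNC. CYBB fell in both (SF: log2 difference -0.90, SE 0.22, FDR = 0.000618; ISF: -0.99, SE 0.22, FDR = 0.000139), in 7 of 7 horses each.

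CYBB was then higher at 96 hours than at 48 hours in 7 of 7 horses in each fluid. Its means were 683 ± 94.2 in SF and 654 ± 115 in ISF at 96 hours, and 858 ± 387 and 1004 ± 392 at 10 days. These steps did not pass the test (48 to 96 hours: log2 difference 0.37, FDR = 0.235 in SF and 0.38, FDR = 0.243 in ISF; 6 to 10 days in ISF: 0.45, FDR = 0.216). The 48 to 96 hour steps passed in fits of only the 2 groups compared (FDR = 0.0109 and 0.0416), and the ISF step from 6 to 10 days passed without the horse Moon (0.58, FDR = 0.0167). At 10 days the libraries of the horses, each from 1 well, were far apart. In ISF CYBB ranged from 554 in Moon to 1596 in RimRun, and in SF from 548 in Moon to 1638 in Dealings. Ollie was high in both, at 1049 in SF and 1074 in ISF, while Dealings was at 849 and Dreamer at 1428 in ISF and Dreamer at 612 in SF.

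The cytosolic organisers followed another course, falling at 48 hours and continuing down. NCF1 (ENSECAG00000015095) encodes p47phox, the phosphorylated adaptor that brings the cytosolic complex to the membrane. In people it has near-identical pseudogene copies, and only 1 row carried its symbol here. It measured 699 ± 106 GeTMM in BMNC (545, 700 and 885). At 48 hours it was 329 ± 91.2 in SF (199, 338 and 464) and 366 ± 99.1 in ISF (195, 385 and 486), below all BMNC libraries. At 96 hours it was 161 ± 41.2 (92.8, 166 and 220) and 172 ± 56.7 (87.8, 162 and 269). The falls from 0 to 48 hours (SF: log2 difference -1.12, SE 0.22, FDR = 1.67e-05; ISF: -0.97, SE 0.22, FDR = 0.000121) and from 48 to 96 hours (SF: -1.02, SE 0.22, FDR = 0.000176; ISF: -1.10, SE 0.22, FDR = 0.00011) passed the test, in 7 of 7 horses each. Without the libraries of Dealings and Dreamer the ISF step to 96 hours was -0.98 (FDR = 0.00152).

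After 96 hours NCF1 levelled at 136 ± 34.1 and 132 ± 28.2 GeTMM in SF (6 and 10 days), with no change that passed the test. In ISF it measured 115 ± 40.7 at 6 days, lower than at 96 hours in 7 of 8 horses (log2 difference -0.58, SE 0.21, FDR = 0.0858), and 154 ± 58.9 at 10 days. The ISF step from 96 hours to 6 days passed with the horse as a block (FDR = 0.0154) and without the libraries of Dealings and Dreamer (-0.70, FDR = 0.0381). At 10 days NCF1 stood at a median 20.5% of the horse's own BMNC level in SF and 22.5% in ISF, below it in all 7 horses.

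NCF4 (ENSECAG00000008957) encodes p40phox, which binds phosphoinositides on the phagosome. It measured 463 ± 49.95 GeTMM in BMNC (416, 446 and 554) and 208 ± 68.4 in SF (130, 184 and 312) and 204 ± 41.6 in ISF (143, 202 and 252) at 48 hours. BMNC and culture values did not overlap. It fell in both fluids (SF: log2 difference -1.21, SE 0.21, FDR = 1.65e-06; ISF: -1.20, SE 0.21, FDR = 1.53e-06).

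From 48 to 96 hours NCF4 fell in SF to 130 ± 18.2 (log2 difference -0.63, SE 0.21, FDR = 0.0169, lower in 7 of 7 horses). That call was lost without Lurie (FDR = 0.0627) or without Ollie (FDR = 0.0729). In ISF it measured 143 ± 41.3 at 96 hours, also lower in 7 of 7 horses (-0.54, SE 0.21, FDR = 0.0578), and without the 96-hour libraries of Dealings and Dreamer the difference was -0.45 (FDR = 0.197). With the horse as a block this step passed (-0.58, FDR = 0.0136), and so did the ISF step to 101 ± 35.6 at 6 days (-0.52, FDR = 0.04 with the block, 0.107 without it) and the SF step from 6 to 10 days (-0.70, FDR = 0.0095 with the block, -0.65 and 0.0508 without it). Without the SF library of Moon, which read 329 against 78.6 to 165 in the others, that last step was -0.44 (FDR = 0.203), while the ISF steps to 96 hours and to 6 days passed (FDR = 0.0196 and 0.038). By 10 days NCF4 was at 78.0 ± 17.4 in SF and 74.4 ± 13.4 in ISF, a median 17.7% and 16.6% of the horse's own BMNC level. Across the 9 conditions, BMNC stood above the next mean by more than the larger SD for NCF1, NCF4 and RAC2. Among the cultures, the lower of the 48-hour means stood so above the next mean for NCF1 (SF at 48 hours above ISF at 96 hours) and NCF4 (ISF at 48 hours above ISF at 96 hours).

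RAC2 (ENSECAG00000022570), the small GTPase of blood cells that completes the active oxidase, was the most abundant member in BMNC, at 1878 ± 249 GeTMM (1508, 1905 and 2330). At 48 hours it measured 961 ± 130 in SF (810, 947 and 1170) and 931 ± 155 in ISF (673, 899 and 1168), with no overlap with BMNC. It fell in both fluids (SF: log2 difference -0.97, SE 0.13, FDR = 3.67e-09; ISF: -1.02, SE 0.13, FDR = 5.49e-10; 7 of 7 horses each). No later interval passed the test. RAC2 was at 756 ± 134 in SF and 707 ± 43.5 in ISF at 10 days, and neighbouring culture conditions in the order of its means did not differ beyond their SD. NCF4 and RAC2 are near neighbours in the genome: in the RefSeq annotation of the horse assembly TB-T2T they lie on 1 chromosome with 10 protein-coding genes between them.

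A change over the first 48 hours was common among all genes. From 0 to 48 hours 6 of 6 tested members passed the test in ISF (5 lower, 1 higher), where 52.7% of all genes tested did (25.3% higher, 27.4% lower), and 5 of 6 in SF (4 lower, 1 higher), where 45.4% did (22.3% higher, 23.1% lower). The members' median log2 difference was -0.98 in ISF and -0.93 in SF, and that of all genes -0.03 and -0.01. From 48 to 96 hours 2 of 6 passed in ISF (NCF1 and SOD2, both lower; 19% of all genes) and 2 of 6 in SF (NCF1 and NCF4, both lower; 27.3%). No member passed from 96 hours to 6 days (6.38% of all genes in ISF, 2.05% in SF) or from 6 to 10 days (10.5% and 4.78%). In those 4 intervals the members with an unadjusted p under 0.05 were NCF1 and NCF4 (ISF, 96 hours to 6 days), CYBB and SOD2 (ISF, 6 to 10 days), none (SF, 96 hours to 6 days) and NCF4 (SF, 6 to 10 days), and limma voom on recovered reads also called none. Of the 14570 genes tested, 2890, 3195, 2448 and 3283 had such a p in these intervals, in that order.

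**Figure D2:**
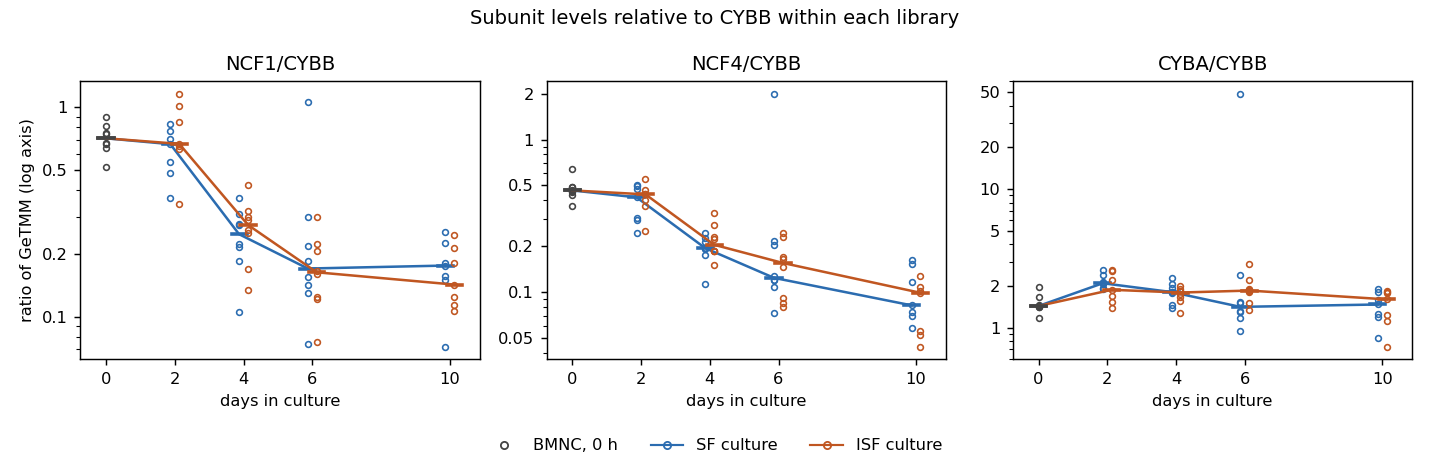
Ratio of each subunit's GeTMM to that of CYBB in the same library (log axis) against days in culture. Circles are libraries and bars group medians (black BMNC, blue SF, orange ISF); the ratios of NCF1 and NCF4 at 10 days lie below all BMNC libraries, those of CYBA overlap them, and the highest point of every panel at 6 days is the SF library of Moon.

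The subunits thus shifted in proportion to each other. Proportions are given within libraries as a ratio to CYBB, a measure chosen after the values were seen and given without a test. NCF1 stood at 0.714 ± 0.116 of CYBB in BMNC and at 0.625 ± 0.164 (SF) and 0.759 ± 0.271 (ISF) at 48 hours, and the 3 groups overlapped. At 96 hours it was 0.244 ± 0.0807 and 0.268 ± 0.0903, and at 10 days 0.173 ± 0.058 and 0.161 ± 0.0535, when the highest culture (0.253) was below the lowest BMNC library (0.519). NCF4 went from 0.475 ± 0.0763 in BMNC to 0.102 ± 0.0421 in SF and 0.084 ± 0.0328 in ISF at 10 days. CYBA stood at a ratio of 1.49 ± 0.232 in BMNC, 2.17 ± 0.261 and 1.98 ± 0.484 at 48 hours, and 1.44 ± 0.371 and 1.44 ± 0.423 at 10 days, so that it was higher at 48 hours than in BMNC or at 10 days. The ratio in the SF library of Moon at 6 days was 48.7 for CYBA, and the other 7 libraries averaged 1.46 ± 0.465. NCF1, NCF4 and the mature neutrophil markers given above were all lower at 10 days than in BMNC. From 96 hours to 6 and 10 days those markers went from 8.94 to 8.21 and 6.92 in SF, where NCF1 levelled. In ISF they went from 9.13 to 8.01 and 6.67, while NCF1 measured 115 GeTMM at 6 days and 154 at 10 days. NCF4 measured 143, 101 and 74.4 GeTMM in ISF at 96 hours, 6 days and 10 days. In SF it measured 130, 134 and 78.0, and 107 at 6 days without the library of Moon. Erythroid markers fell too, from 5.64 in BMNC to 0.28 (SF) and 0.29 (ISF) at 10 days. Neutrophil precursor markers went from 10.2 to 3.98 and 1.91. The part of a changing cell makeup in the fall of NCF1 and NCF4 was not tested.

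NCF1, NCF4 and RAC2 also moved together across libraries, by Pearson's r of log2(GeTMM + 1) over the 68 libraries, which share horses, fluids and times. The values were 0.88 for NCF1 with NCF4, 0.81 for NCF4 with RAC2 and 0.80 for NCF1 with RAC2. About the group means they were 0.64, 0.38 and 0.45. CYBB showed r of -0.10 with NCF4 and 0.02 with NCF1. CYBA and CYBB correlated at -0.12 over all libraries and at 0.54 with that 6-day SF library of Moon left out.

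The genes most like each member over the same libraries, among 9627 with a symbol and a mean of at least 5 GeTMM in 1 group, were OSCAR, CDKN2D and ATG16L2 for NCF1 (r of 0.92, 0.91 and 0.91). For NCF4 they were RINL, PRAM1 and STXBP2 (0.95, 0.94 and 0.94), and for RAC2 AATK, GTPBP1 and SLC10A3 (0.90, 0.89 and 0.89). CYBA was closest to PGLS, GIPC1 and ARL2 (0.84, 0.83 and 0.81), and CYBB to ZYG11B, LRCH1 and PPM1K (0.74, 0.73 and 0.69). SOD2 was closest to TMEM43, RELB and SEMA6B (0.76, 0.75 and 0.74).

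NOS2 (ENSECAG00000024761) was listed at 0 in 67 of the 68 libraries. The exception was the SF library of Moon at 6 days, at 0.157 GeTMM. With a single value above 0, the number of reads behind it could not be recovered. Each 0 is compatible with up to 3 reads, which on 1 kilobase of gene would be 0.101 to 0.294 GeTMM depending on the library, for counting error only. NOS2 was thus not detectable at this depth in BMNC or in either fluid at 4 times, lay under the filter on low values, and was not tested. The other synthases were also near the floor: NOS3, the endothelial form, reached 0.246 GeTMM at most and was above 0 in 36 libraries, and NOS1, the neuronal form, was above 0 in 4 libraries and reached 0.0184 at most.

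**Figure D3:**
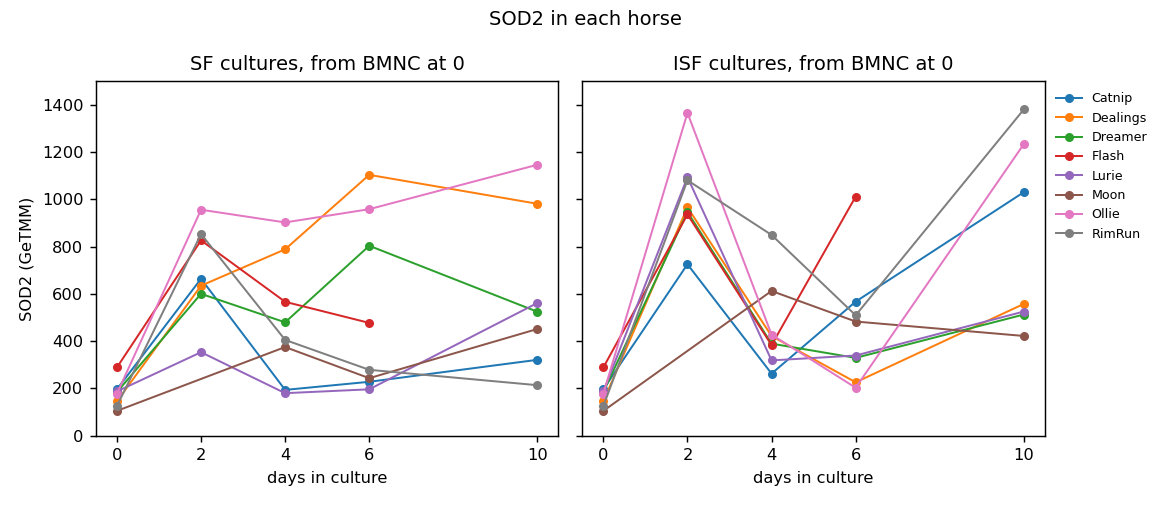
SOD2 in GeTMM against days in culture, 1 line per horse, SF cultures on the left and ISF cultures on the right, both starting from that horse's BMNC. All 7 horses with 48-hour libraries rose from BMNC in both fluids. After 48 hours the lines diverge, with Ollie and Dealings high in SF and RimRun, Ollie and Catnip high in ISF at 10 days.

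SOD2 (ENSECAG00000011797) was the 1 member that rose in culture. It measured 177 ± 55.9 GeTMM in BMNC (105, 182 and 289). At 48 hours it was 698 ± 200 in SF (353, 664 and 956) and 1016 ± 196 in ISF (725, 966 and 1365), above every BMNC library. The rise was 3.93-fold in SF (log2 difference 1.98, SE 0.35, FDR = 3.82e-06) and 5.87-fold in ISF (2.55, SE 0.35, FDR = 7.66e-09). Relative to the horse's own BMNC it ranged from 1.88 to 6.78 times in SF and from 3.24 to 8.59 times in ISF.

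SOD2 then fell in ISF to 458 ± 188 at 96 hours (log2 difference -1.21, SE 0.35, FDR = 0.00904, lower in 7 of 7 horses). Without the libraries of Dealings and Dreamer at 96 hours this was -1.19 (FDR = 0.0284). In SF it measured 486 ± 259 at 96 hours (-0.66, SE 0.35, FDR = 0.166, lower in 6 of 7 horses). The later means were 536 ± 366 and 600 ± 341 in SF, and 459 ± 259 and 809 ± 395 in ISF at 6 and 10 days. The ISF step from 6 to 10 days was upward in 6 of 7 horses without passing the test (0.85, SE 0.35, FDR = 0.12).

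The spread of SOD2 between horses was wide. At 6 days in SF it ran from 197 in Lurie to 1103 in Dealings, and in ISF from 203 in Ollie to 1011 in Flash. At 10 days in ISF it ran from 422 in Moon to 1380 in RimRun. The order of horses was not the same in the fluids: Dealings at 6 days had 0.205 times as much SOD2 in ISF as in SF, and Catnip 2.49 times as much. RimRun at 10 days had 6.45 times as much in ISF as in SF. Over 9 conditions Ollie averaged 0.46 above the group means on the log2 scale and Lurie 0.45 below (-0.45), and over its 7 conditions Flash averaged 0.38 above.

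Beside SOD2, the cytosolic superoxide dismutase SOD1 measured 112 ± 22.2 GeTMM in BMNC, and 144 ± 42.6 in SF and 120 ± 15.6 in ISF at 48 hours, without passing the test (FDR = 0.182 and 0.643). The SOD2 to SOD1 ratio within a library was 1.61 ± 0.508 in BMNC and 5.26 ± 2.39 in SF and 8.68 ± 2.502 in ISF at 48 hours. SOD3, the extracellular form, was above 0 in 12 libraries and reached 1.12.

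**Figure D4:**
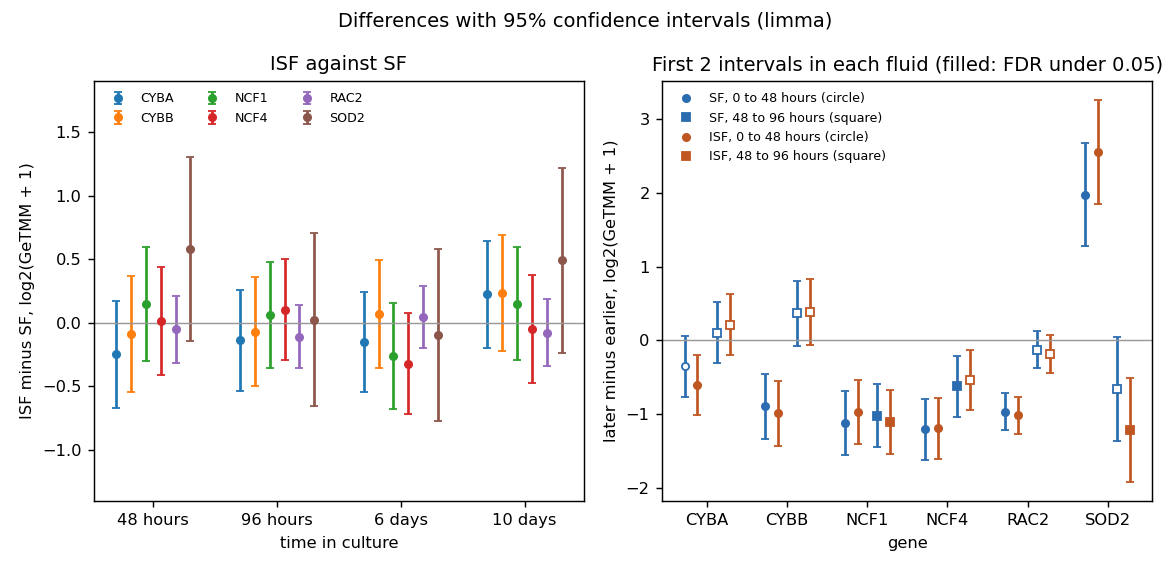
Left, ISF minus SF in log2(GeTMM + 1) for 6 members at 4 times, with 95% confidence intervals. Right, the change over the first intervals in each fluid (circles 0 to 48 hours, squares 48 to 96 hours, filled where FDR was under 0.05); every interval on the left spans 0, while on the right all 6 members in ISF have a filled circle.

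The comparison of the fluids asks whether the inflamed joint environment changed these genes. No tested member passed the test between ISF and SF at any time. At 48 hours 0 of 6 passed the test, where 1.68% of all genes did. At 96 hours it was 0 of 6 with 10.5% of all genes, at 6 days 0 of 6 with 30.2%, and at 10 days 0 of 6 with 20.8%. In the fit with all libraries none had an unadjusted p under 0.05 at any time. Of the 14570 genes tested, 2035, 3502, 5784 and 4755 did, in order of time. Without the SF library of Moon the CYBA intervals at 48 hours and 10 days excluded 0, as given below. By limma voom no member passed. Every member's ISF and SF values overlapped at every time, for which no share over all genes is given. The change of the ISF minus SF difference passed for 0 of 6 from 48 hours to 6 days (5.38% of all genes). From 6 to 10 days it also passed for 0 of 6 (0.226%). Again none had an unadjusted p under 0.05, where 2827 and 1989 of all genes tested did, and none passed by limma voom. Leaving out Moon, CYBA passed in the change from 48 hours to 6 days (0.49, FDR = 0.0339).

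The intervals say how large a fluid difference these data allow in the fit with all libraries, whose spread includes the SF library of Moon. RAC2 was held most tightly: its log2 differences were -0.05 (95% interval -0.32 to 0.21), -0.11 (-0.36 to 0.14), 0.04 (-0.20 to 0.29) and -0.08 (-0.34 to 0.18) in order of time. For NCF1 they ran from -0.26 (-0.68 to 0.15, at 6 days) to 0.15 (-0.29 to 0.60, at 10 days). NCF4 was lowest at 6 days, at -0.32 (-0.72 to 0.08, FDR = 0.227), and without the SF library of Moon this was -0.11 (FDR = 0.654). CYBB lay between -0.09 at 48 hours and 0.23 (-0.22 to 0.69) at 10 days. At 6 days CYBB was at 0.07, and without the SF library of Moon at -0.22 (FDR = 0.343).

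For CYBA and SOD2 the horses leaned 1 way at some times without passing the test. CYBA was lower in ISF in 6 of 7 horses at 48 hours (log2 difference -0.25, 95% interval -0.67 to 0.17, FDR = 0.653) and in 7 of 8 at 96 hours (-0.14, FDR = 0.74), and higher in ISF in 6 of 8 at 6 days and 5 of 7 at 10 days (0.22, FDR = 0.508). The fitted value at 6 days was -0.15 with the SF library of Moon and 0.20 (-0.01 to 0.42, FDR = 0.127) without it. Leaving that library out narrowed the CYBA interval at 48 hours to -0.47 to -0.03 (FDR = 0.177). At 10 days it became 0.004 to 0.44 (FDR = 0.12), and at 96 hours -0.34 to 0.07 (FDR = 0.381). The 48-hour and 10-day intervals then excluded 0, though neither difference passed the test. SOD2 was higher in ISF in 7 of 7 horses at 48 hours, by 1.09 to 3.09 times, yet the groups overlapped and the difference of 0.58 (-0.15 to 1.30) had an FDR of 0.497. Over the alternatives tried, its FDR at 48 hours ranged from 0.123 to 0.765. At 10 days SOD2 differed by 0.49 (-0.24 to 1.22, FDR = 0.37) with 3 of 7 horses higher.

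**Figure D5:**
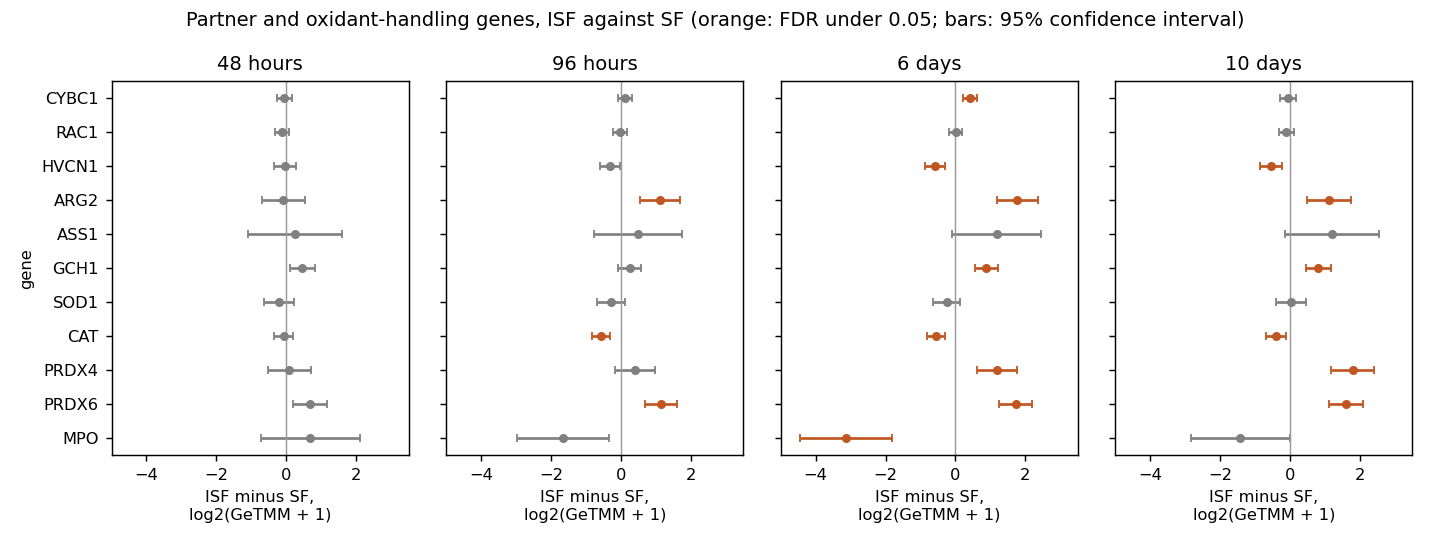
ISF minus SF in log2(GeTMM + 1) for 11 partner and oxidant-handling genes at 4 times, with 95% confidence intervals (orange where FDR was under 0.05, grey otherwise). ARG2 and PRDX6 are on the ISF side and CAT on the SF side at 96 hours, 6 days and 10 days; no gene shown passed at 48 hours.

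The other genes of the oxidase system were followed as a list of 10 partners, all tested. Over 0 to 48 hours 2 rose and 6 fell in ISF, and 3 rose and 3 fell in SF, against the 52.7% and 45.4% of all genes that passed. The median log2 difference of the list was -0.55 in ISF and -0.29 in SF. CYBC1, a chaperone needed to make the membrane pair, rose from 119 ± 18.0 in BMNC to 172 ± 24.6 in SF (log2 difference 0.52, FDR = 3.28e-05) and 163 ± 14.8 in ISF (0.46, FDR = 0.000178) at 48 hours.

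RAC1, the widely expressed relative of RAC2, stood at 248 ± 32.8 GeTMM in BMNC and at 263 ± 30.4 (SF, FDR = 0.52) and 240 ± 27.9 (ISF, FDR = 0.728) at 48 hours. RAC2 was 7.63 ± 1.08 times as high as RAC1 in BMNC and 3.70 ± 0.649 (SF) and 3.89 ± 0.607 (ISF) times at 48 hours. RAC1 fell from 48 to 96 hours in SF (-0.35, FDR = 0.00514) and from 6 to 10 days in ISF (-0.31, FDR = 0.0293). HVCN1, the proton channel that balances the charge the oxidase moves, fell by 48 hours in SF (-0.65, FDR = 0.000231) and ISF (-0.70, FDR = 6.98e-05).

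Between the fluids the partner list held 0 calls at 48 hours, 1 at 96 hours (higher in ISF), 5 at 6 days (4 higher, 1 lower) and 1 at 10 days (lower), against 1.68%, 10.5%, 30.2% and 20.8% of all genes. Of 10 genes, 1 is no more than that share at 96 hours and at 10 days. HVCN1 was the lower one both times: 82.9 ± 22.4 GeTMM in ISF against 122 ± 16.1 in SF at 6 days (log2 difference -0.59, SE 0.14, FDR = 0.00113, 8 of 8 horses), and 72.2 ± 15.4 against 106 ± 26.3 at 10 days (-0.54, SE 0.15, FDR = 0.00758, 7 of 7). The 10-day call was lost without Dealings (FDR = 0.0864). B cell markers (4 of 5 listed genes used) were also lower on average in ISF at these times. They averaged 1.57 on the log2 scale in ISF and 3.19 in SF at 6 days, and 1.14 and 3.17 at 10 days. The part of a differing cell makeup in the HVCN1 difference was not tested. CYBC1 was higher in ISF at 6 days (209 ± 32.4 against 156 ± 26.7, log2 difference 0.42, SE 0.10, FDR = 0.000974, 8 of 8 horses). RAC1 did not pass between the fluids at any time. VAV1, PRKCB and PRKCD, activators upstream of the oxidase named after their values were seen, made up the remaining calls, all higher in ISF. Without the SF library of Moon, PRKCB did not pass at 6 days (FDR = 0.121), and VAV1 at 96 hours passed under 9 of the 16 alternatives (highest FDR 0.183, without Dreamer).

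Among 10 genes of other oxidases (NOX1, NOX3, NOX4, NOX5, their organisers and the dual oxidases with their maturation factors), 2 passed the filter on low values. NOX3 was at 0 in every library, and NOX1 reached 0.486 GeTMM. NOX4, a form found in stromal cells, reached 2.51 in the 10-day SF culture of Lurie. That culture also had the highest mean level of stromal markers (9.39 on the log2 scale, against 0.10 in the lowest library of its group). The part of stromal cells in this NOX4 level was not tested. Between the fluids 1 of the 2 tested genes passed, NOXA1 at 6 days (log2 difference -0.38, FDR = 0.0352), named after its values were seen. Its highest SF value, 2.92 GeTMM against a group median of 0.607, was that of Moon, and without that library it did not pass (FDR = 0.171).

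Of the 10 genes of nitric oxide and arginine metabolism 6 were tested, and between the fluids 0 passed at 48 hours, 1 at 96 hours (higher in ISF), 3 at 6 days (2 higher, 1 lower) and 2 at 10 days (both higher). The shares of all genes were 1.68%, 10.5%, 30.2% and 20.8%. ARG2, the mitochondrial arginase that consumes the substrate of NOS2, was higher in ISF at 96 hours (67.1 ± 25.0 against 29.7 ± 8.78 GeTMM, log2 difference 1.12, SE 0.29, FDR = 0.00651), 6 days (91.2 ± 29.7 against 29.9 ± 22.8, 1.77, SE 0.29, FDR = 2.7e-06) and 10 days (97.8 ± 13.1 against 53.2 ± 30.9, 1.11, SE 0.31, FDR = 0.00655), in every horse compared. The change of this difference from 48 hours to 6 days passed too (1.86, SE 0.43, FDR = 0.00429). ARG2 had fallen in SF from 48 to 96 hours (-1.91, FDR = 1.13e-06). ARG1, the arginase of granulocytes and liver, was above 0 in 11 libraries and reached 0.866.

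GCH1, which makes the cofactor that nitric oxide synthases need, was low but higher in ISF at 6 days (6.14 ± 1.48 against 2.96 ± 1.22, log2 difference 0.88, FDR = 3.4e-05) and 10 days (7.49 ± 2.23 against 3.76 ± 0.94, 0.81, FDR = 0.000511). ASS1, which rebuilds arginine from citrulline, averaged 46.4 ± 43.5 in ISF and 13.3 ± 8.55 in SF at 6 days without passing the test (1.18, SE 0.63, FDR = 0.158, higher in 7 of 8 horses). With the horse as a block it passed (FDR = 0.00822). ASL, the next enzyme of the same cycle, was the gene lower in ISF at 6 days (log2 difference -0.66, FDR = 0.00535). It was named after its values were seen. ASL measured 32.2 ± 4.37 GeTMM in ISF (median 33.5) and 58.3 ± 39.4 in SF (median 45.8). Its highest SF value, 152, was that of Moon.

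Of 13 genes that remove superoxide or peroxide, 12 were found and 11 tested, and none passed between the fluids at 48 hours. At 96 hours 1 was higher and 1 lower in ISF, at 6 days 3 and 1, and at 10 days 2 and 1. At 6 and 10 days these counts are near the 30.2% and 20.8% of all genes that passed, and at 96 hours 10.5% did. CAT, the catalase, was lower in ISF at 96 hours (267 ± 47.8 against 393 ± 46.3 GeTMM, log2 difference -0.57, SE 0.13, FDR = 0.00162), at 6 days (226 ± 34.3 against 341 ± 83.1, -0.55, FDR = 0.000731, 7 of 8 horses) and at 10 days (220 ± 45.1 against 288 ± 46.1, -0.40, FDR = 0.0306). The 10-day call did not hold under 4 of the 16 alternatives (highest FDR 0.144, without Dealings). PRDX6, a peroxiredoxin that also reduces lipid peroxides, was higher in ISF at 96 hours (172 ± 50.1 against 75.5 ± 13.0, 1.14, FDR = 0.000393), without overlap of the groups, at 6 days (322 ± 148 against 95.2 ± 43.9, 1.72, FDR = 3.46e-08) and 10 days (353 ± 149 against 117 ± 47.5, 1.59, FDR = 2e-06). At 48 hours the PRDX6 groups did not overlap either, at a difference of 0.67 that did not pass (FDR = 0.154). PRDX4, the peroxiredoxin of the endoplasmic reticulum, was higher in ISF at 6 days (236 ± 184 against 92.6 ± 57.7, 1.18, FDR = 0.00109) and 10 days (317 ± 136 against 97.7 ± 76.4, 1.79, FDR = 1.18e-05), in 7 of 8 and 6 of 7 horses.

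Myeloperoxidase (MPO), the granule enzyme that uses the peroxide derived from the oxidase, measured 695 ± 258 GeTMM in BMNC. At 6 days it was 21.1 ± 15.4 in ISF and 177 ± 120 in SF (log2 difference -3.12, SE 0.66, FDR = 0.000181, lower in ISF in 8 of 8 horses). MPO is also in the list of neutrophil precursor markers, which averaged 4.48 on the log2 scale in ISF (0.50 to 7.06) and 7.07 in SF (3.58 to 8.90) at 6 days, and their part in the MPO difference was not tested. Of 3 haloperoxidases MPO was the only one to pass between the fluids.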

How the data were processed

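Total RNA of 68 samples was sequenced (stranded, paired-end). Per the study's methods and the labels, the authors trimmed reads with TrimGalore, aligned them to EquCab3.0 with STAR 2.7.2a, counted reads per Ensembl gene with its GeneCounts option and deposited GeTMM values. These are RPKM-like values deposited by the authors: reads per kilobase scaled by trimmed-mean factors.

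Groups came from the labels. limma 3.58.1 (R 4.3.3, trended prior, 1 fit over 9 groups) was run on log2(GeTMM + 1). A gene was tested if 7 or more libraries reached 0.5 GeTMM (14570 genes), with Benjamini-Hochberg adjustment over all of them within each comparison and a threshold of 0.05. The members and lists were chosen with earlier results of these data known. Named were all members, 14 genes of the lists (GPX1 is not used here and 1 other is not reported here) and any other list gene past a log2 difference of 1 and the threshold between the fluids. For each of the 24065 genes above 0, reads were recovered by choosing a gene length that made its values whole reads within 0.02. For a gene above 0 in few libraries, such as NOS2, this does not fix the reads. As an alternative, limma voom was run on the recovered reads of genes past the filter. Deviations from group means correlated at a median of 0.263 in 258 pairs of libraries of 1 horse and -0.046 in 2020 other pairs, so the animal pairs the libraries, and a fit with the horse as a block was an alternative. The test was tried on simulated data first. Wells were not replicated within a horse, so the spread holds differences between horses, wells and libraries together.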

Additional observations from a re-analysis of the deposited data

Results flagged for a closer look

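In 54 groups of values (6 members in 9 conditions), 3 held a library far from the others, where chance gives about 1 in 20. CYBA in SF at 6 days read 8016 GeTMM in Moon, against 888 to 1305 in the other 7 libraries, a gap of 0.825 of the whole range (critical value 0.526). CYBB in the same library read 164 GeTMM, against 523 to 1087, a gap of 0.612 of the range. This library was unlike the others as a whole, not in these genes alone. Its values summed to 2.32e+06 GeTMM, against 1.46e+06 in the next highest library. In it 12797 genes were above 0, against 14783 in the next lowest. NCF4 in SF at 10 days read 45.0 GeTMM in Dreamer, against 69.7 to 95.5 in the other libraries, a gap of 0.580 of the range (critical value 0.568).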

How the results depend on the processing

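Of the 84 member results (15 past the threshold), 16 alternatives gave 1344 values. Of these, 1323 stayed on the same side of the threshold and 19 passed it anew. Another 2 lost it (NCF4 in SF from 48 to 96 hours without Lurie or Ollie, 1 member left). No called value turned its sign, while 50 of the 1323, none of them past the threshold, did. Where the number of members past the threshold moved, the cause was not tested. With the horse as a replicate block, which pairs the libraries of an animal, it was 2 for ISF from 96 hours to 6 days and 1 for SF from 6 to 10 days. It was 4 for ISF from 48 to 96 hours with only the groups compared, and 1 for ISF from 96 hours to 6 days without Dealings and Dreamer at 96 hours and 1 without the SF library of Moon. Leaving out each horse gave 2 to 3 members in ISF and 1 to 2 in SF from 48 to 96 hours, 0 to 1 in ISF and 0 to 1 in SF from 6 to 10 days, 5 to 6 in SF from 0 to 48 hours, and 0 to 1 for the change from 48 hours to 6 days. The block changed no call of a member beyond NCF1 and NCF4 in the intervals given in the report.

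Counts over all genes moved by more than 1.5 times as follows. With the replicate block, ISF against SF went from 245 to 660 at 48 hours and from 1524 to 2431 at 96 hours, ISF from 96 hours to 6 days from 929 to 1552, SF from 96 hours to 6 days from 298 to 558 and from 6 to 10 days from 696 to 1450, and the changes of the fluid difference from 784 to 1441 and from 33 to 270. With only the groups compared, the counts were 2686 (fluids, 96 hours), 1995 against 4405 (fluids, 6 days), 61 and 3 (SF, the same intervals), and 350 and 0 (changes). Without the SF library of Moon they were 728 and 2438 (fluids, 48 and 96 hours), 1680 (ISF, 96 hours to 6 days), 319 (SF, 6 to 10 days) and 99 (change from 6 to 10 days). Without Dealings and Dreamer at 96 hours the 96-hour count was 901. The change from 6 to 10 days gave 20 with a pseudocount of 0.1 and 12 by limma voom. Leaving out each horse, the fluids gave 75 to 721, 882 to 2508, 3587 to 5185 and 1945 to 4086 in order of time, ISF 7002 to 8355, 1824 to 3788, 422 to 1444 and 854 to 2278, SF 5848 to 7258, 3080 to 4945, 147 to 315 and 198 to 768, and the changes 292 to 1123 and 1 to 194. Centring each library on its median gene shifted SF from 6 to 10 days by 0.119 on the log2 scale and the other comparisons by less. Among the members only NOS2 lay under the filter on low values, and the reason for its values of 0 was not tested.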
